A study of Mus musculus with 4 samples.

Results

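Expression of 41 genes of the kinetochore, condensin and cohesin was compared between late-onset and early-onset PDGF-B gliomas of the mouse. The genes were taken from a given list of gene symbols, and all 41 were measured, among 19937 genes in all. The 28 kinetochore genes, 8 condensin genes and 5 cohesin genes each had 1 probe set with a single annotated gene. The arrays were of the Affymetrix whole-transcript type, and values are log2 levels.

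The late-onset high-grade group held 2 samples, each from 1 tumour, here called tumour 1 and tumour 2. The early-onset low-grade group held 2 samples, each a pool of cells from 2 tumours, here called pool 1 and pool 2. All 4 samples came from C57/Bl6 mice whose embryos had been injected at embryonic day 14 with a retrovirus that expressed PDGF-B, a growth factor for glial progenitors, together with EGFP. EGFP-positive glioma cells were sorted by flow cytometry before RNA extraction. The labels give no ages, and the groups carried no other genetic change by the labels. No sample is labelled as normal tissue. Markers of microglia and macrophages were far lower in the late-onset samples than in the early-onset samples, although all were sorted for EGFP. Labels call the samples biological replicates, but 2 samples a group leave little room to estimate the spread.

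The kinetochore is the protein assembly through which each chromosome is held by spindle microtubules during mitosis. It is built on centromeric nucleosomes that contain the histone variant CENP-A, with an inner layer on chromatin and an outer layer that binds microtubules. Condensin compacts chromosomes as cells enter mitosis. Cohesin holds sister chromatids together until anaphase and also shapes chromatin loops outside mitosis. Transcripts of many kinetochore and condensin subunits are most abundant in dividing cells, whereas cohesin subunits are also made in cells that do not divide.

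In late-onset cells, 31 of the 41 genes rose and 0 fell (limma with Benjamini-Hochberg adjustment over all 19937 genes, adjusted p under 0.05). Over all genes tested, 6.59% rose and 8.12% fell. In a fit of only the 9968 genes above the median level, 27 of 37 members rose, against 15.1% of those genes. The median log2 fold change, late-onset minus early-onset, was 0.81 for the 41 genes and -0.01 for all genes. No member had an unadjusted p under 0.05 in the lower direction (0 of 41, limma), against 36 in the higher direction. Over all genes these shares were 15.4% lower and 14.5% higher. Of the members, 11 rose by at least 2-fold, against 1.87% of all genes. Both tumours lay above both pools for 39 of the 41 genes, against 28.5% of all genes. Both lay below both pools for 0 of 41, against 30.4% of all genes, and in either direction the groups of 58.9% of all genes were apart. In either direction, 14.7% of all genes were called.

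The size of the difference varied with the structure. All 8 condensin genes and 22 of 28 kinetochore genes rose, with median log2 fold changes of 0.76 and 0.85. One of the 5 cohesin genes rose, Rad21, and the cohesin median was 0.29. No test was made of the differences between these 3 groups.

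**Figure D1:**
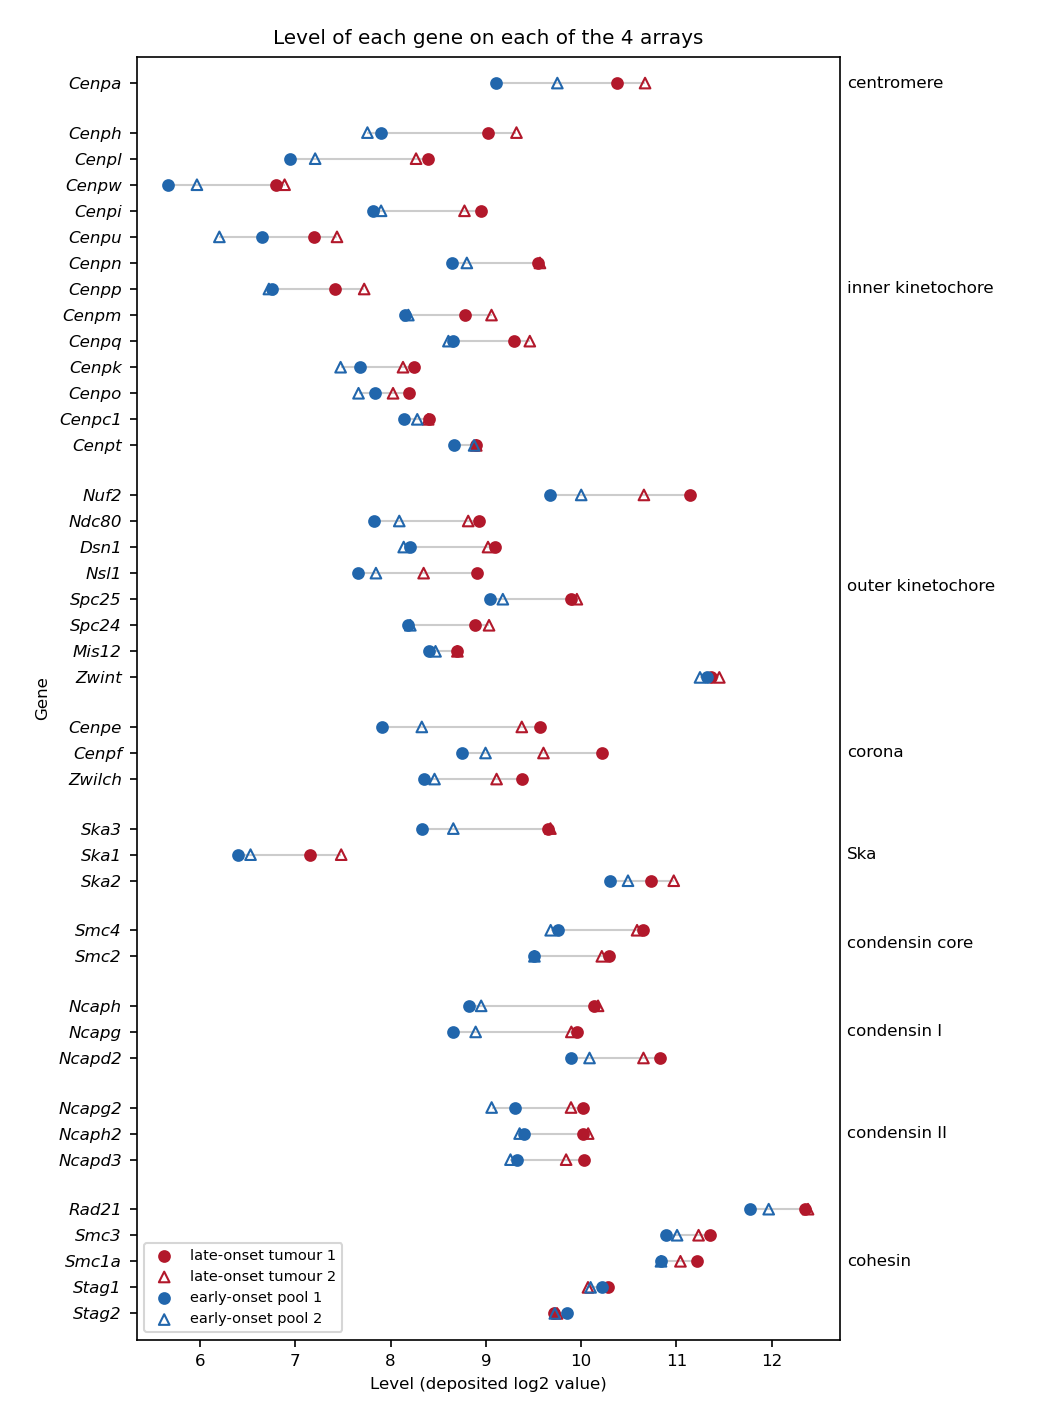
Level of each of the 41 genes (rows, by structure) on the horizontal axis as the deposited log2 value. Filled circles and open triangles are replicate 1 and replicate 2, in red for late-onset tumours and in blue for early-onset pools, and the red symbols lie right of the blue ones in 39 rows, all but Stag1 and Stag2.

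**Figure D2:**
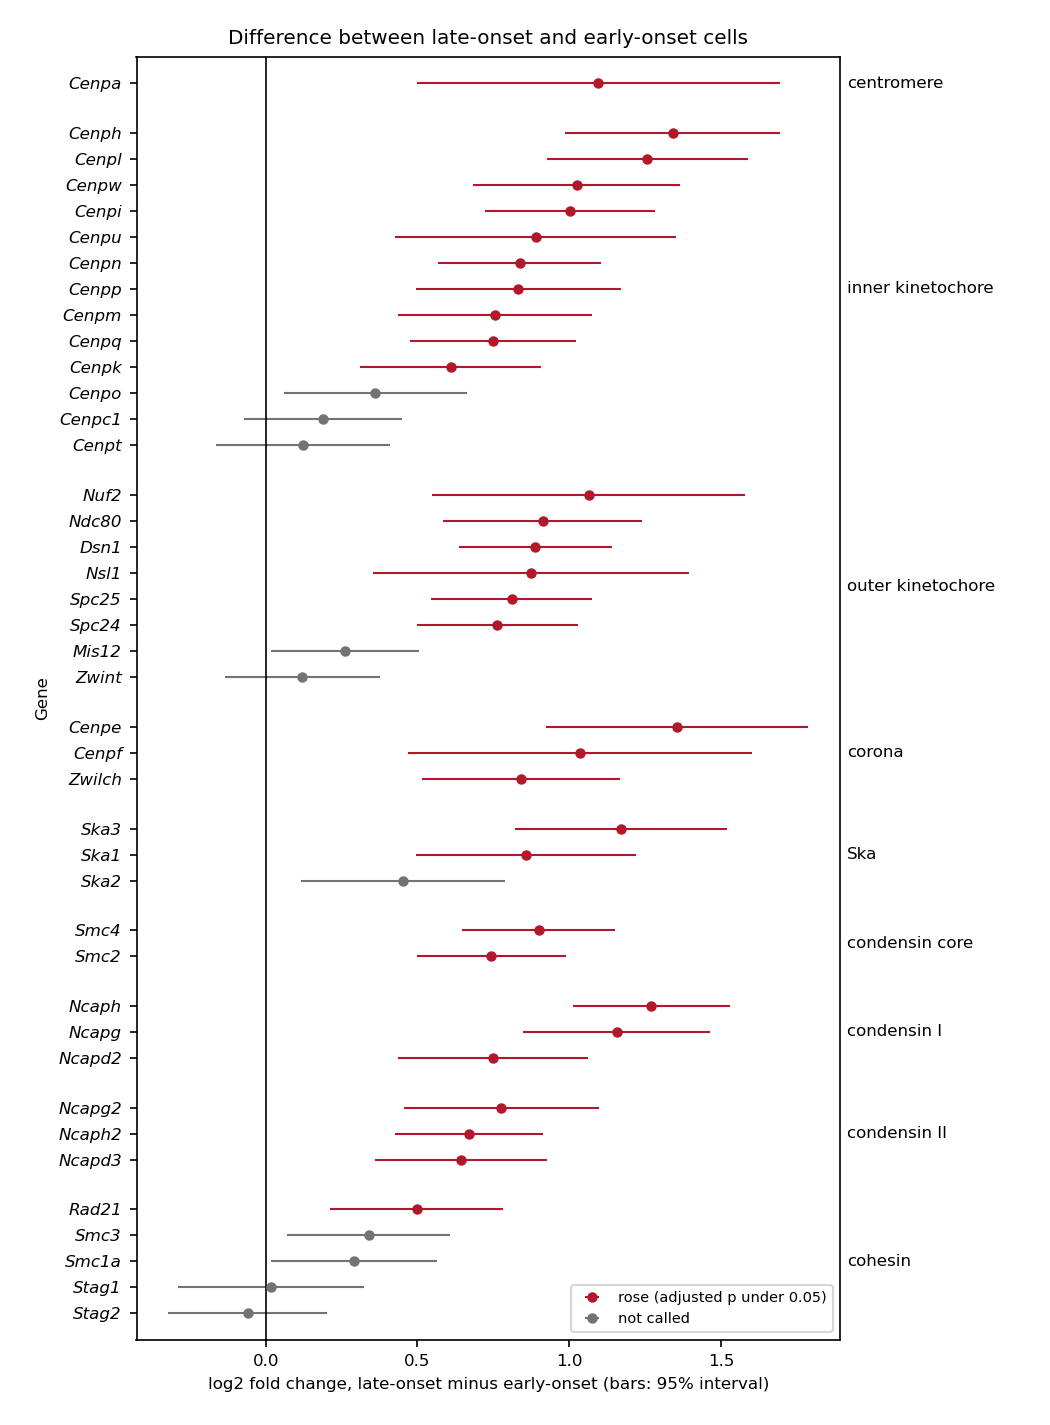
log2 fold change of each gene, late-onset minus early-onset, with its 95% interval from limma. Genes that rose (31) are red and genes not called (10) are grey, and the grey ones include 4 of the 5 cohesin genes at the bottom.

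Promoter windows are shown because genes of late cell cycle stages are known to share short promoter elements. These are the cell cycle gene homology region (CHR), through which the DREAM and MuvB complexes act, the CCAAT box bound by NF-Y, and sites of E2F factors. RefSeq windows of GRCm38.p6, from 250 bases before to 50 bases after the annotated start, were matched by gene identifier for 34 of the 41 genes. Each is written 5′ to 3′ on the strand of its gene. Capitals mark the letters TTTGAA (CHR), CCAAT and GGCGGGA (an E2F-type core) on the gene's strand or, as the complement, on the other strand. One gene is given for each of the centromere, outer kinetochore, corona, Ska complex and condensin, followed by the cohesin gene Stag1, whose window holds no TTTGAA. The 6 windows were picked after their matches were seen, all but that of Stag1 because TTTGAA or its complement lay near the start.
Cenpa, chr5:30666636-30666935, plus strand: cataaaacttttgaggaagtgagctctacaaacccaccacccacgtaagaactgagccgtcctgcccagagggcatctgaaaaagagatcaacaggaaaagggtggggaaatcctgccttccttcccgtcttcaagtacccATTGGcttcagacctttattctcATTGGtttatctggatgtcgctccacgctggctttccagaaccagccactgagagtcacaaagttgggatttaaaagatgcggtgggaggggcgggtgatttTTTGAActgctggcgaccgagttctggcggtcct
Ndc80, chr17:71526808-71527107, minus strand: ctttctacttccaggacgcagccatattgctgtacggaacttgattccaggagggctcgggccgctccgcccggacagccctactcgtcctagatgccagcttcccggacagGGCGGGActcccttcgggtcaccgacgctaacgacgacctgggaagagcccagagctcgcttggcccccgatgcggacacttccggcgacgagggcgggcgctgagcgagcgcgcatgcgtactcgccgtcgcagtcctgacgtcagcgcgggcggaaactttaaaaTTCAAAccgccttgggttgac
Cenpf, chr1:189688037-189688336, minus strand: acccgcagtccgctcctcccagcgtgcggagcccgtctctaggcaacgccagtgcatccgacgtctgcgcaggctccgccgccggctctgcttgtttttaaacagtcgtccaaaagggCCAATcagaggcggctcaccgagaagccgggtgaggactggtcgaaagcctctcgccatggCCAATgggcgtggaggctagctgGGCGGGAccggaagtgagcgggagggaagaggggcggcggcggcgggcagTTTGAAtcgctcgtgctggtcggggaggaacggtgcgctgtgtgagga
Ska3, chr14:57826114-57826413, minus strand: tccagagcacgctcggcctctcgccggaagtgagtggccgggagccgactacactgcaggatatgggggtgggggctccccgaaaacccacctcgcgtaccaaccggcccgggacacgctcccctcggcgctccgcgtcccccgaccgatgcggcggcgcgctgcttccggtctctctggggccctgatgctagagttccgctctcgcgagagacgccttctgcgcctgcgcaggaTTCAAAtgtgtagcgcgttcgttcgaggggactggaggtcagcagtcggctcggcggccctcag
Ncapg, chr5:45669675-45669974, plus strand: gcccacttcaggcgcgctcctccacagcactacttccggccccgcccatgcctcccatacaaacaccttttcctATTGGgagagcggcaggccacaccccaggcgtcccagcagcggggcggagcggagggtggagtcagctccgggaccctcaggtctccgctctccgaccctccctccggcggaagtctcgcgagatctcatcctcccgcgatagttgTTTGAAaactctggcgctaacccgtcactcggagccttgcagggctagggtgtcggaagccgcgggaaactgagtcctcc
Stag1, chr9:100643198-100643497, plus strand: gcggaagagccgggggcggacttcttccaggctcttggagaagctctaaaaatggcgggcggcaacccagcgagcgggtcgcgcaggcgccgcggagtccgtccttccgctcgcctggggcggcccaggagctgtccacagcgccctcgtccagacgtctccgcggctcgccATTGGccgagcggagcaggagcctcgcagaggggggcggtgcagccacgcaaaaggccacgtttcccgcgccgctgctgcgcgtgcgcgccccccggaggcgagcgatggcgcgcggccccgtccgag

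The CHR letters TTTGAA were present in 13 of the 34 genes with a window, or 38.2%. Among all 27025 genes of the promoter table the share was 20.2%, and among the 1023 genes with a window that rose over the whole array it was 19.9%. The 13 genes were Cenpa, Cenpl, Cenpn, Cenpw, Ndc80, Spc25, Cenpf, Ska3, Smc2, Ncapg, Ncapd2, Ncapg2 and Ncapd3. All of them were among the 25 windowed members that rose, and 0 of the 9 windowed members not called held the letters. At the share of 17.3% among the 15613 measured genes with a window, few of 9 genes would hold them. In the printed windows the first base of the match lay 16 bases after the annotated start in Cenpa, 29 after it in Ndc80 and 2 after it in Cenpf. It lay 14 bases before the start in Ska3 and 30 before it in Ncapg. A variant, TTCGAA, was found in 2 of the 34 genes, Cenpm and Ncaph2, against 1.80% of all genes and 3.42% of all genes that rose.

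The other motifs were found in members that rose and in members not called. CCAAT was present in 22 of the 34 genes (64.7%), in 16 of the 25 that rose and in 6 of the 9 not called, against 41.1% of all genes and 47.9% of all genes that rose. GGCGGGA was present in 11 of the 34 (32.4%), in 8 of the 25 and in 3 of the 9, against 12.7% of all genes and 30.0% of all genes that rose. Among the matches in members, 1 pair of different motifs overlapped, in Cenpw. A match describes the letters of the window and is no measure of a factor's binding, and no test was made of these shares.

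**Figure D3:**
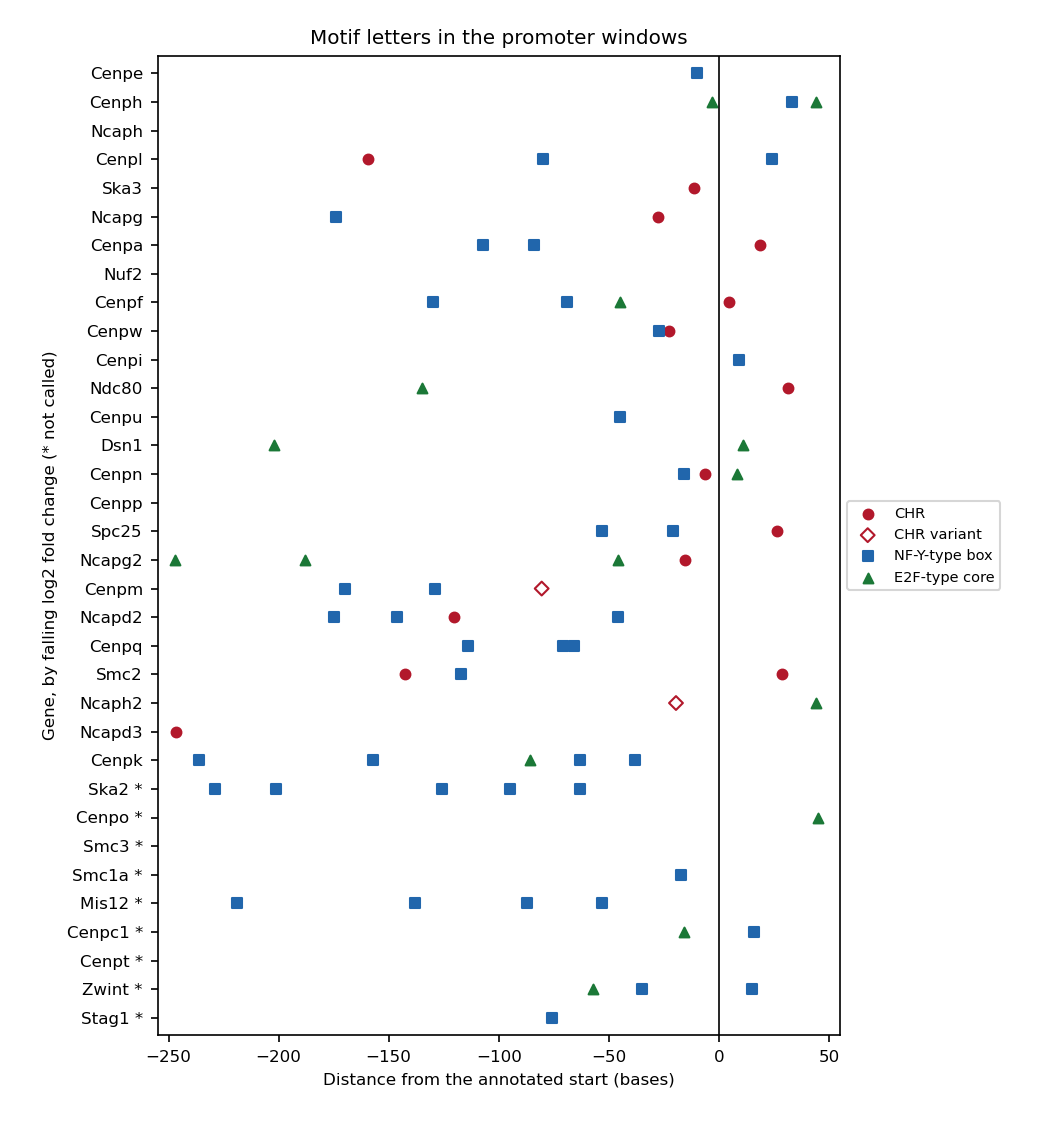
Position of each motif match (horizontal axis, bases from the annotated start) in the windows of 34 genes, ordered by falling log2 fold change, with an asterisk for the 9 genes not called. Red circles mark the CHR letters, open red diamonds their variant, blue squares the NF-Y-type (CCAAT) box and green triangles the E2F-type core, and no red symbol stands in the rows of the genes not called.

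Cenpa encodes the histone H3 variant that marks the centromere. Its log2 level was 10.38 in tumour 1 and 10.67 in tumour 2, against 9.11 in pool 1 and 9.75 in pool 2. The tumours lay above the pools, and the pools differed by 0.64, the widest gap between pools of any member. Cenpa rose by 1.09 on the log2 scale (SE 0.24, limma adjusted p = 0.0392). The call was lost without tumour 1 (adjusted p = 0.0563), without tumour 2 (0.112), without pool 1 (0.106) and after cyclic loess (0.0506), and the log2 fold change stayed between 0.77 and 1.41 over the 15 other settings tried.

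The inner kinetochore, also called the constitutive centromere-associated network, had 13 genes, of which 10 rose. Cenph, which with Cenpi and Cenpk encodes a subcomplex of this layer, rose furthest. Its log2 level was 9.02 in tumour 1 and 9.32 in tumour 2, against 7.90 in pool 1 and 7.76 in pool 2. Both tumours stood more than 1 log2 unit above both pools, and the log2 fold change was 1.34 (SE 0.14, limma adjusted p = 0.0064). Cenpl, which encodes the partner of CENP-N in reading the CENP-A nucleosome, was at 8.40 and 8.27 in tumours 1 and 2, against 6.94 and 7.21 in pools 1 and 2. It rose by 1.26 (SE 0.13, adjusted p = 0.00639). Cenpw encodes a histone-fold protein that pairs with CENP-T. It was at 6.80 and 6.89 in tumours 1 and 2, against 5.67 and 5.97 in pools 1 and 2, and rose by 1.02 (SE 0.13, adjusted p = 0.0108). For all 3 genes the tumours and the pools were well apart.

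The other inner kinetochore genes that rose were Cenpi (log2 fold change 1.00), Cenpu (0.89), Cenpn (0.84), Cenpp (0.83), Cenpm (0.76), Cenpq (0.75) and Cenpk (0.61). Cenpo, Cenpp, Cenpq and Cenpu encode subunits of one subcomplex, and Cenpo alone of these was not called (0.36, 95% interval 0.06 to 0.66, adjusted p = 0.112). The remaining genes not called were Cenpc1 and Cenpt, which encode the scaffolds that join the inner to the outer layer. Cenpt was at 8.89 in tumour 1 and 8.90 in tumour 2, against 8.67 in pool 1 and 8.88 in pool 2. Pool 2 thus stood almost level with both tumours. The log2 fold change of Cenpt was 0.12 (95% interval -0.16 to 0.41, adjusted p = 0.541), and that of Cenpc1 was 0.19 (-0.07 to 0.45, adjusted p = 0.296). The upper ends of both intervals lie below the fold change of Cenpk, the smallest among the inner kinetochore genes that rose. The 95% interval of Cenpk itself (0.31 to 0.91) overlaps both, and differences between genes were not tested.

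Calls of all inner kinetochore genes that rose, except Cenph and Cenpl, were lost in at least 1 fit with a sample left out. Without pool 1, 7 were lost (Cenpw, Cenpi, Cenpn, Cenpp, Cenpm, Cenpq and Cenpk, adjusted p 0.0524 to 0.11). Without pool 2, 5 were lost (Cenpu, Cenpp, Cenpm, Cenpq and Cenpk, 0.0957 to 0.169). Without tumour 2, Cenpu and Cenpk were lost (0.0999 and 0.0563), and without tumour 1, Cenpk (0.0758). The calls of Cenph and Cenpl held when each of the 4 samples was left out in turn. Where calls were lost, log2 fold changes were 0.71 to 0.96 without pool 1 and 0.51 to 0.82 without pool 2.

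The outer kinetochore list held the 4 genes of the NDC80 complex, which grips the microtubule, 3 genes of the MIS12 complex, which anchors it, and Zwint. All 4 NDC80 complex genes rose. Nuf2 was at 11.15 in tumour 1 and 10.66 in tumour 2, against 9.68 in pool 1 and 10.00 in pool 2. It rose by 1.06 (SE 0.20, adjusted p = 0.0286), with tumour 1 the highest of the arrays. Ndc80, its direct partner, was at 8.93 and 8.81 in tumours 1 and 2, against 7.82 and 8.09 in pools 1 and 2, and rose by 0.91 (SE 0.13, adjusted p = 0.0132). Spc25 rose by 0.81 and Spc24 by 0.76. These 4 subunits of one complex thus lay between 0.76 and 1.06.

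Of the MIS12 complex genes, Dsn1 and Nsl1 rose. Dsn1 was at 9.10 in tumour 1 and 9.02 in tumour 2, against 8.21 in pool 1 and 8.14 in pool 2. The replicates of each group lay within 0.08 of each other, and the log2 fold change was 0.89 (SE 0.10, adjusted p = 0.00737). Nsl1 rose by 0.88 (SE 0.21, adjusted p = 0.049). Mis12 itself stood at 0.26 (95% interval 0.02 to 0.51, adjusted p = 0.144). Zwint encodes a partner of KNL1 in the outer layer. It was at 11.36 and 11.45 in tumours 1 and 2, against 11.32 and 11.25 in pools 1 and 2, and its log2 fold change was 0.12 (95% interval -0.13 to 0.38, adjusted p = 0.492). After cyclic loess it was -0.00.

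Without pool 1, calls were lost for Nuf2, Ndc80, Nsl1, Spc25 and Spc24 (adjusted p 0.0678 to 0.208). Without pool 2 they were lost for Nuf2, Dsn1, Nsl1, Spc25 and Spc24 (0.0547 to 0.158). The call of Nsl1 was also lost without tumour 1 (0.0614) and after cyclic loess (0.0503).

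The corona is the outermost, transient layer, from which the checkpoint signal is sent. Its 3 genes on the list all rose. Cenpe encodes the kinesin that carries chromosomes towards the spindle equator, and had the largest log2 fold change of the 41 genes. It was at 9.57 in tumour 1 and 9.38 in tumour 2, against 7.91 in pool 1 and 8.33 in pool 2. The difference of 1.36 (SE 0.17, adjusted p = 0.00966) was a 2.56-fold higher level in late-onset cells, and the call held without each of the 4 samples. Cenpf encodes a large coiled-coil protein of the corona. It was at 10.22 and 9.60 in tumours 1 and 2, against 8.75 and 9.00 in pools 1 and 2, and rose by 1.04 (SE 0.22, adjusted p = 0.0393). Its tumours differed by 0.61, the widest gap between tumours of any member. Zwilch encodes a subunit of the RZZ complex, which brings checkpoint proteins and dynein to the kinetochore. It was at 9.38 and 9.11 in tumours 1 and 2, against 8.35 and 8.46 in pools 1 and 2, and rose by 0.84 (SE 0.13, adjusted p = 0.016). Without pool 1, the calls of Cenpf and Zwilch were lost (0.177 and 0.0959), as without pool 2 (0.127 and 0.0806), and that of Cenpf also after quantile normalization (0.0505) and cyclic loess (0.0509).

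The Ska complex tracks microtubule ends and steadies the attachment made by NDC80. Ska3 was at 9.65 in tumour 1 and 9.68 in tumour 2, against 8.33 in pool 1 and 8.66 in pool 2. It rose by 1.17 (SE 0.14, adjusted p = 0.0085), a call that held without each of the 4 samples. Ska1 was at 7.16 and 7.48 in tumours 1 and 2, against 6.39 and 6.53 in pools 1 and 2, and rose by 0.86 (SE 0.14, adjusted p = 0.02). Its call was lost without pool 1 (0.111) and without pool 2 (0.0901). Ska2 was at 10.73 and 10.97 in tumours 1 and 2, against 10.31 and 10.49 in pools 1 and 2, with a log2 fold change of 0.45 (95% interval 0.12 to 0.79, adjusted p = 0.0855). Its groups did not overlap, but it was not called.

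All 8 condensin genes rose. Smc2 and Smc4 encode the ATPase pair that both condensin complexes share. Smc4 was at 10.65 in tumour 1 and 10.59 in tumour 2, against 9.76 in pool 1 and 9.68 in pool 2, and rose by 0.90 (SE 0.10, adjusted p = 0.00725). Smc2 was at 10.29 and 10.22 in tumours 1 and 2, against 9.51 in each pool, and rose by 0.74 (SE 0.10, adjusted p = 0.0106). For both genes the groups stood far apart beside the gaps between replicates.

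Condensin I reaches chromosomes after the nuclear envelope breaks down, and its own subunits are encoded by Ncaph, Ncapg and Ncapd2. Ncaph, the gene of the kleisin that closes the ring, was at 10.14 in tumour 1 and 10.18 in tumour 2, against 8.82 in pool 1 and 8.95 in pool 2. It rose by 1.27 (SE 0.10), with the smallest adjusted p of the 41 genes (0.00372). Ncapg was at 9.96 and 9.90 in tumours 1 and 2, against 8.65 and 8.89 in pools 1 and 2, and rose by 1.16 (SE 0.12, adjusted p = 0.0065). Ncapd2 was at 10.83 and 10.65 in tumours 1 and 2, against 9.90 and 10.09 in pools 1 and 2, and rose by 0.75 (SE 0.12, adjusted p = 0.0192). Tumours and pools were clearly apart in all 3.

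Condensin II is nuclear throughout the cell cycle and starts compaction in prophase. Its genes lay closer together than those of condensin I, with a median of 0.67 against 1.16 for condensin I, a difference that was not tested. Ncapg2 was at 10.02 in tumour 1 and 9.89 in tumour 2, against 9.30 in pool 1 and 9.06 in pool 2, and rose by 0.78 (SE 0.13, adjusted p = 0.0188). Ncaph2 was at 10.02 and 10.07 in tumours 1 and 2, against 9.41 and 9.35 in pools 1 and 2, and rose by 0.67 (SE 0.10, adjusted p = 0.0136). Ncapd3 was at 10.03 and 9.84 in tumours 1 and 2, against 9.33 and 9.26 in pools 1 and 2, and rose by 0.64 (SE 0.11, adjusted p = 0.0226).

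Among condensin genes, the calls of Ncaph and Ncapg held without each of the 4 samples. Without pool 1, calls were lost for Smc2 (adjusted p = 0.0705), Ncapd2 (0.108) and all 3 condensin II genes (0.0546 to 0.104). Without pool 2, they were lost for Smc4 and Smc2 (0.0571 and 0.0767), Ncapd2 (0.0711) and all 3 condensin II genes (0.102 to 0.142). Without tumour 1, those of Ncapg2 and Ncapd3 were lost (0.0503 to 0.0538).

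Cohesin had the lowest median of the structures. Rad21 encodes the kleisin that separase cuts at anaphase. It was at 12.35 in tumour 1 and 12.38 in tumour 2, against 11.77 in pool 1 and 11.97 in pool 2. It rose by 0.50 (SE 0.11, adjusted p = 0.0447), and this call was lost without any 1 of the 4 samples (adjusted p 0.0879 to 0.215), after quantile normalization (0.102) and after cyclic loess (0.115). Smc3 and Smc1a encode the ATPase arms of the ring. Their log2 fold changes were 0.34 (95% interval 0.07 to 0.61, adjusted p = 0.0989) and 0.29 (0.02 to 0.57, adjusted p = 0.149), and neither was called.

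Stag1 and Stag2 encode alternative subunits of the ring, of which each cohesin complex holds one. Stag1 was at 10.28 in tumour 1 and 10.07 in tumour 2, against 10.22 in pool 1 and 10.10 in pool 2. Stag2 was at 9.71 and 9.75 in tumours 1 and 2, against 9.86 and 9.72 in pools 1 and 2. These were the only members whose groups overlapped. The log2 fold change was 0.02 for Stag1 (95% interval -0.29 to 0.32, adjusted p = 0.949) and -0.06 for Stag2 (-0.32 to 0.20, adjusted p = 0.761). A 2-fold difference lies outside both intervals. The sign of each changed under some other settings, in 4 of 15 for Stag1 and 1 of 15 for Stag2.

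Other genes of these pathways were read from the same fit. Of 15 measured genes of centromere assembly and the kinetochore outside the 41, 11 rose and 0 fell, with a median log2 fold change of 0.91. Sgo1 (1.26) and Sgo2a (1.17) encode shugoshins, which protect centromeric cohesin, and Oip5 (1.22) encodes a subunit of the Mis18 complex, which prepares the centromere for new CENP-A. Mis18a (1.05), for its partner, Knl1 (0.95), for the scaffold to which ZWINT binds, and Kntc1 (0.88), for the partner of ZWILCH, also rose. Pmf1 (0.68), the gene of the remaining MIS12 complex subunit, and Cenps (0.47), the gene of a partner of CENP-T, rose as well. Zw10, Cenpv, Cenpb and Cenpx were not called. Of 12 genes of the chromosomal passenger complex and the spindle checkpoint, 11 rose, with a median of 1.04, led by Plk1 (1.35), Bub1b (1.29) and Bub1 (1.28). Mad1l1 was not called (0.34, adjusted p = 0.125). The Plk1 call was lost without tumour 2 (adjusted p = 0.0532) and the Sgo2a call without either pool (0.0832 and 0.0926).

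Of 12 genes of cohesin loading, release and cleavage, 3 rose and 0 fell, with a median of 0.13. The 3 were Cdca5 (1.05), which encodes sororin, Esco2 (0.74), which encodes an acetyltransferase of SMC3 in S phase, and Espl1 (0.60), which encodes separase. Nipbl and Mau2, which encode the cohesin loader, stood at -0.08 and -0.24, and the release factor gene Wapl at 0.17, and none of these was called. Calls were lost without pool 1 for Cdca5, Esco2 and Espl1 (adjusted p 0.0506 to 0.135), without pool 2 for Esco2 and Espl1 (0.0983 and 0.147), and without tumour 1 for Espl1 (0.0618). Of 7 genes of the related Smc5/6 complex, which acts in DNA repair, Nsmce2 rose (0.70, adjusted p = 0.0236), and its call was lost without tumour 2 (0.0567), pool 1 (0.0995) or pool 2 (0.144).

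Of 6 genes of meiotic cohesin and its partners, 0 rose and 0 fell by limma, with a median log2 fold change of 0.07, and the median of their log2 levels ran from 4.34 to 4.62 over the 4 arrays. At an unadjusted p under 0.05, 0 of the 6 differed. The one with the largest moderated t was Smc1b (0.31, adjusted p = 0.18). Of 7 genes of chromosome structure and the chromosome surface, 4 rose, namely Kif4 (1.20), Kif22 (1.13), Mki67 (1.03) and Top2a (0.98). Kif4 and Kif22 encode chromosome-bound kinesins. Top2a encodes the topoisomerase that works with condensin, and its paralogue Top2b, which is also used outside division, stood at -0.04 (adjusted p = 0.882). The proliferation marker Mki67 lay within the range of the members that rose, 0.50 to 1.36. Its call was lost without pool 1 (adjusted p = 0.0582) or pool 2 (0.0501).

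**Figure D4:**
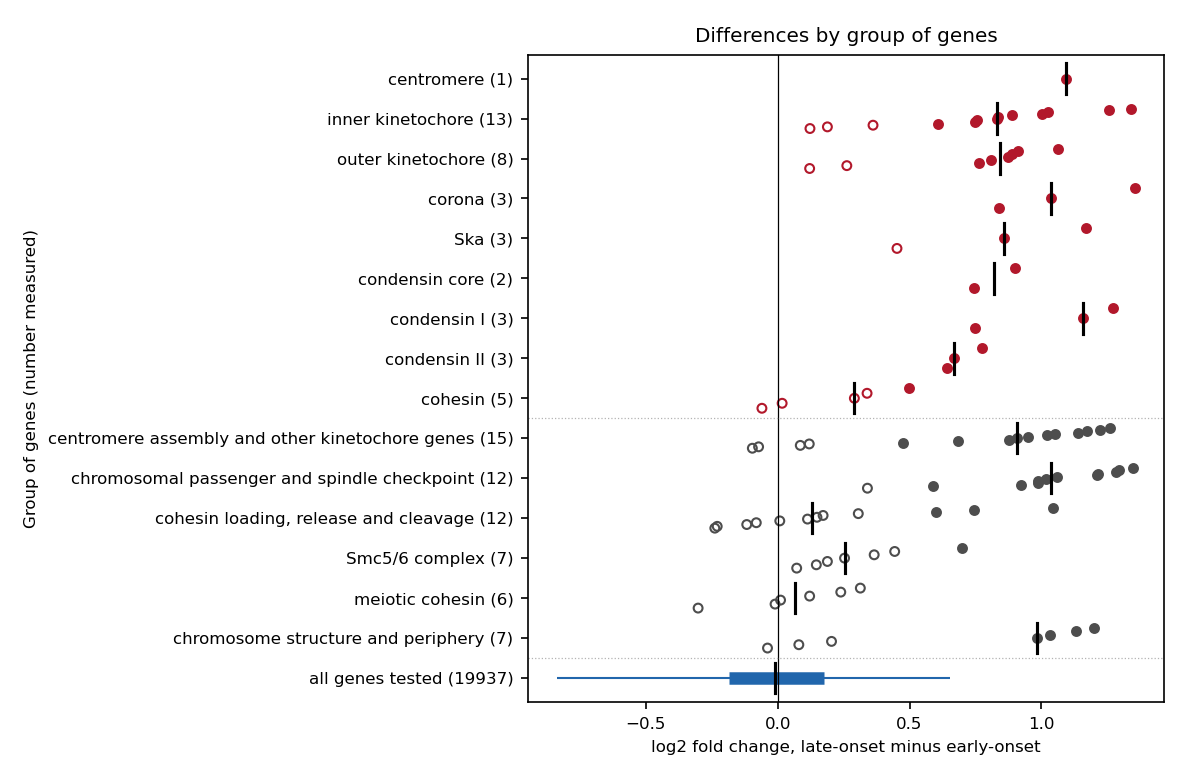
log2 fold change, late-onset minus early-onset, of the members by structure (red) and of the other pathway genes by list (grey), with filled points for genes that rose, open points for genes not called and a black bar at each median. The blue bar spans the 25th to 75th percentile (-0.19 to 0.18) and the line the 5th to 95th percentile (-0.84 to 0.65) of all 19937 genes.

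Members differed little between replicates at the median, but some by more, and markers of myeloid cells moved the other way from the members. The members' median absolute gap was 0.13 between the tumours and 0.14 between the pools. The gap exceeded 0.3 for 6 members between the tumours and for 5 between the pools. Pool 2 lay above pool 1 for 26 of the 41 genes, against 10673 of all 19937 genes. It was higher by most for Cenpa (0.64), Cenpe (0.42), Ska3 (0.33) and Nuf2 (0.32), whereas Cenpu lay 0.45 lower in pool 2. Of 17 measured markers of microglia and macrophages, 16 fell and 0 rose, at a median of -3.77. Their summed linear level was 2046 in tumour 1 and 3106 in tumour 2, against 39017 in pool 1 and 33328 in pool 2, and none was listed at 0. Of 7 markers of oligodendrocyte progenitors and of glioma cells of that lineage, 0 rose and 2 fell, at a median of -0.34, with sums of 35098 and 33676 in tumours 1 and 2 against 44539 and 46002 in pools 1 and 2. The 2 that fell were Cspg5 (-0.74) and Pdgfra (-0.45), whereas Sox10 stood at -0.00 and Olig2 at -0.19. Both tumours lay below both pools for 5 of the 7, against 30.4% of all genes. All 7 had mean levels between the 85.4th percentile of all genes, for Nkx2-2, and the 99.96th, for Pdgfra, a brightness that also depends on the probes. Of 10 astrocyte markers 5 fell and 0 rose, with sums of 6392 and 6978 in tumours 1 and 2 against 11282 and 13775 in pools 1 and 2, at a median of -1.07. Of 9 neuronal markers 1 rose and 5 fell, with sums of 3155 and 3120 in tumours 1 and 2 against 2641 and 2764 in pools 1 and 2, at a median of -0.81. The one that rose was Tubb3 (1.86), and without it the sums were 983 and 1259 in tumours 1 and 2 against 1904 and 2348 in pools 1 and 2. Oligodendrocyte (1 rose and 2 fell of 7), endothelial (1 rose and 0 fell of 8) and pericyte markers (0 rose and 1 fell of 7) had medians of 0.11, -0.23 and 0.06. The members' own sum was 42081 and 40712 in tumours 1 and 2, against 26250 and 27837 in pools 1 and 2. The part of other cells in the members' values was not tested. In sorted bulk cells, more dividing cells and more RNA of these genes per cell cannot be told apart.

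Members lay on 18 chromosomes. On chromosome 1, the median of tumour 1 minus tumour 2 was 0.40 over the 578 genes above the median level, against -0.06 to -0.01 on each other chromosome measured. The median log2 fold change of these genes, late-onset minus early-onset, was 0.24, against -0.004 to 0.097 on each other chromosome measured. The 4 members on chromosome 1, Cenpl, Nuf2, Nsl1 and Cenpf, were all higher in tumour 1. Leaving out tumour 1 gave log2 fold changes of 1.19, 0.82, 0.59 and 0.73, where all 4 samples gave 1.26, 1.06, 0.88 and 1.04, and the call of Nsl1 was lost (adjusted p = 0.0614). The part of chromosome 1 in the difference between the tumours, or in that between the groups, was not tested for single genes.

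Of the 31 members that rose, 6 kept their call under each of 15 other settings, namely Cenph, Cenpl, Cenpe, Ska3, Ncaph and Ncapg. For 18 others a call was lost only when a sample was left out, and for 7 also under another scaling or with the replicate number as a block. No called member changed sign under any of the 15 settings. Both tumours lay above both pools for each called member, so leaving out a sample could not change a sign. Only the settings with another scaling could have done so. Without pool 1, 9 members rose, and without pool 2, 11 rose, while 1.66% and 1.46% of all genes did.

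**Figure D5:**
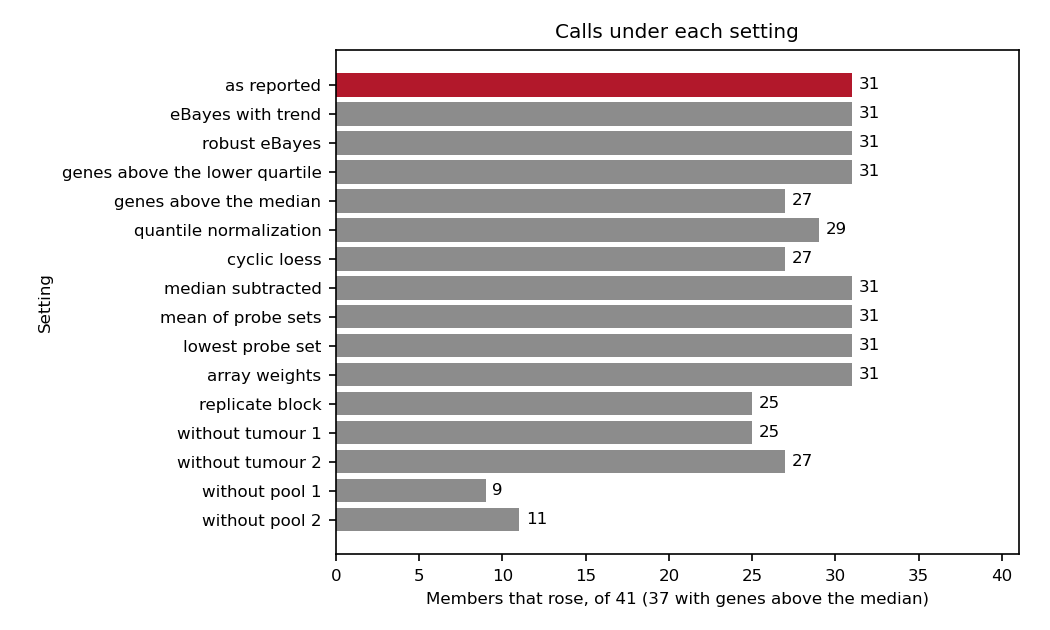
Number of members that rose (horizontal axis, of 41, or of 37 where genes at or below the median level were left out) under the reported fit (red) and 15 other settings (grey). The count was 25 to 31 in 13 of the settings, and 9 and 11 without pool 1 and without pool 2.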

How the data were processed

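The authors deposited 1 table of log2 values for 34760 probe sets and 4 arrays. The submitters' processing notes name RMA and affy 3.4.2 without saying how they were set. RNA carried biotin from a one-cycle assay, per the labels' protocols. The usual RMA brings all arrays to a common distribution, which hides any shift that most genes share. Column medians lay between 6.63 and 6.71. The number of arrays limits the precision.

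Of the probe sets, 21640 had 1 gene symbol in the platform annotation, and 21553 of these matched the GRCm38.p6 RefSeq table. For each of the 19937 genes the probe set with the highest mean was kept. The deposited log2 values were tested late-onset minus early-onset by lmFit and eBayes of limma 3.58.1 (R 4.3.3) without further scaling or filtering. Every adjusted p in the text is Benjamini-Hochberg over all genes, and p-values rest only on the spread between these samples. For each gene, eBayes combined its own spread (2 degrees of freedom) with that of all genes (3.27 prior degrees of freedom). Procedures were tested on simulated data. The members and lists were chosen with earlier results of these data known. Per-array values were given for up to 3 called members of each structure by fold change and for the member nearest 0. Those of Stag2 were given in addition to this rule. Of each other pathway list, up to 3 called genes by fold change, or the one of largest moderated t, were named by rule, and further genes after their values were seen. Of 62 other pathway genes, 59 were measured. The other listed genes are not reported here.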

Additional observations from a re-analysis of the deposited data

How the results depend on the processing

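The members' median log2 fold change lay between 0.73 and 0.87 under the 15 other settings. The count of members that rose ranged from 9 to 27 when each sample was left out, and that of all genes called from 850 to 2577. Where a sample was left out, the lone sample of its group was assumed to vary like the other group. At an adjusted p of 0.01, 10 members and 824 genes were called, at 0.1 there were 4539 genes, and with a 2-fold minimum 11 members and 1077 genes. Same-numbered tumours and pools did not deviate together (correlation of deviations -0.04 over genes). With the replicate number as a replicate block, 25 members and 1833 genes were called, against 31 and 2931 without it, and calls were lost for Cenpu, Nuf2, Nsl1, Cenpf, Ncapd2 and Rad21, and among the other pathway genes named by rule for Espl1 (adjusted p = 0.0593) and Nsmce2 (0.0604). Scaling moved the median of all genes by less than 0.1. With 2 arrays a group, precision is low: Cenpo, Mis12, Ska2, Smc3 and Smc1a had intervals above 0 but were not called after adjustment over all genes.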
